A study of Mus musculus with 18 samples.

Results

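Antioxidant genes, 10 in all and other than Sod1 and the metallothioneins, were followed in laser-captured spinal motor neurons of SOD1 G93A mice: the glutathione peroxidases Gpx1 and Gpx4, the peroxiredoxins Prdx1, Prdx2, Prdx3, Prdx5 and Prdx6, manganese superoxide dismutase Sod2, catalase Cat and thioredoxin Txn1. Members were the probe sets (groups of short probes that report 1 transcript) whose platform annotation gives 1 gene symbol equal to a listed gene. Of 22690 probe sets on the array, 13 met this rule, and they report 7 of the 10 genes, out of 10051 genes with a tested probe set. The 5 probe sets of Prdx1 carry a second symbol and were not analysed here, and Prdx5 and Prdx6 were not analysed here. Of the 13 probe sets, 12 passed the filter on low signals and were tested.

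The arrays came from mice carrying the human SOD1 transgene with the G93A mutation, which develop a disease like inherited amyotrophic lateral sclerosis, and from their non-transgenic littermates, called controls. Animals were 60, 90 or 120 days old, with 3 animals and 1 array each in all 6 groups. Per the labels, 1000 motor neurons of the lumbar cord of each animal were cut out with a laser after toluidine blue staining of frozen 10 µm sections, so a group holds only neurons still present in the cord at that age. The labels used here name neither sex nor strain background, nor the promoter of the transgene.

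Mitochondrial respiration and oxidases release superoxide, which superoxide dismutases turn into hydrogen peroxide. Catalase destroys the peroxide in peroxisomes, while glutathione peroxidases and peroxiredoxins reduce it elsewhere with electrons from glutathione and thioredoxin. Gpx4 is the member that reduces lipid hydroperoxides inside membranes and thereby holds back ferroptosis, an iron-dependent form of cell death. Mutant SOD1 is toxic to motor neurons mainly through a gained property and not through lost dismutase activity, and oxidative damage is a described feature of the disease.

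Values are MAS5 signals, a summary of probe brightness on a linear scale, and differences are on the log2 scale with their standard error from limma (n = 3 per group unless stated). A change means a limma p adjusted by the Benjamini-Hochberg method over 16565 tested probe sets below 0.05. All arrays had a trimmed mean signal of 100 to 100.1, and arrays of 1 group correlated at 0.641 to 0.838 across probe sets, against 0.539 to 0.864 between groups. Of 10 motor neuron markers, 7 were tested, and Nefl, the light neurofilament chain, had signals of 6044.4 to 26845.7. The acetylcholine handling genes Slc5a7 and Slc18a3 lay above the array median in 2 and 0 arrays. Summed marker signals were 7399 to 19086 in G93A and 18806 to 27988 in controls at 60 days, 14247 to 16200 and 12838 to 29528 at 90 days, and 8671 to 16343 and 14354 to 28616 at 120 days. These sums follow Nefl most, with a median signal of 14300 against 1320 for Nefh, the next brightest. Microglial sums (7 of 9 markers tested) were 9157 to 16061 in G93A and 3429 to 5816 in controls at 120 days, with overlap of the genotypes at 60 and 90 days. In such captures, fewer cells of a type and less RNA per cell cannot be told apart.

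The first question was whether the genes of oxidative defence differ between G93A and control motor neurons at an age. By limma 0 of the 12 member probe sets changed at 60, 90 or 120 days, or in the mean of the 3 differences. The background of all tested probe sets was 0.688% called at 60 days, 0% at 90 days, 0.0241% at 120 days and 0.0121% in the mean over ages. At an unadjusted p below 0.05 stood 5 of the 12 at 60 days, 1 at 90 days, 3 at 120 days and 1 in the mean over ages. The matching shares of all tested probe sets were 12.6%, 4.56%, 12.2% and 7.74%, so the single members at 90 days and in the mean lie near it. The 3 at 120 days include the third Sod2 probe set, whose controls of that age all lay below the array median. The 3 animals per group limited the precision: standard errors of a difference at 1 age ran from 0.27 for Gpx4 to 0.90 for the third Sod2 probe set. In the test of whether a genotype difference changed with age 0 of the 12 were called, against a background of 0.417%, and 3 had an unadjusted p below 0.05, against 13.1% of all probe sets. Gpx4, lower in every G93A animal than in every control of its age, is described first.

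**Figure D1:**
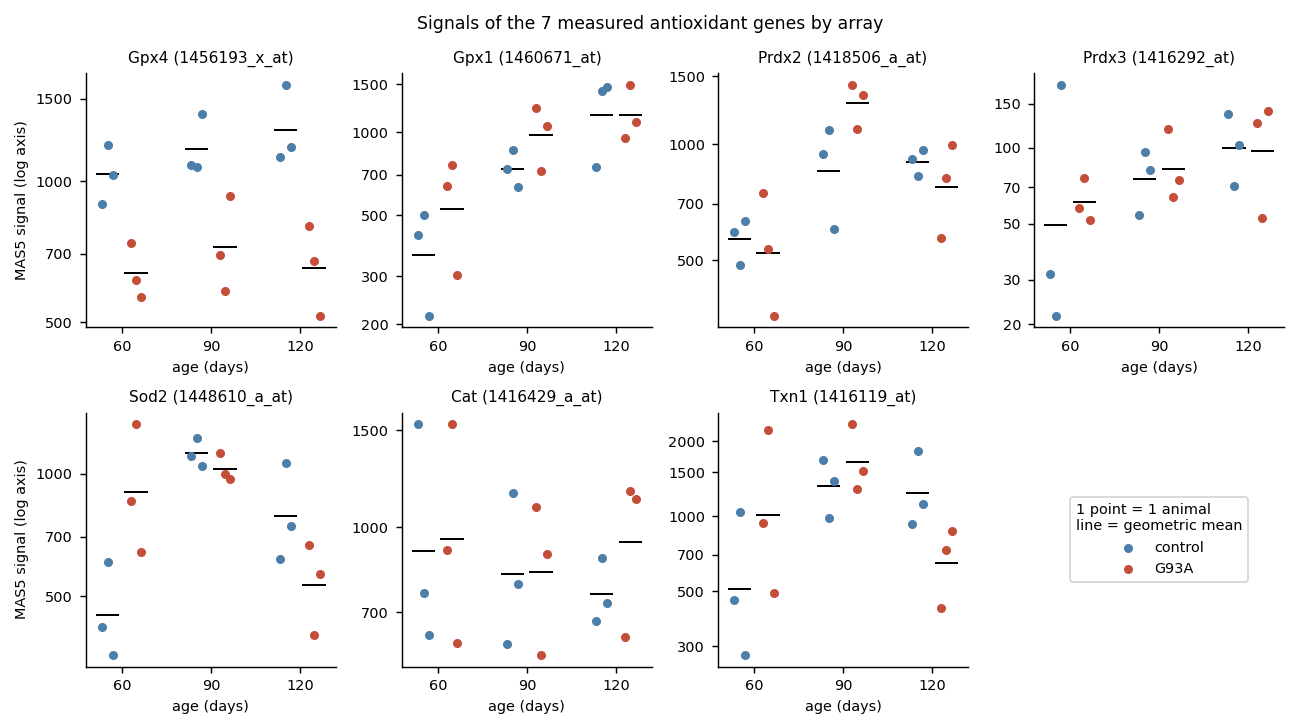
MAS5 signal (log axis) against age for the probe set of highest mean level of each of the 7 measured genes, with 1 point per animal and the geometric mean as a line. In the Gpx4 panel the G93A points lie below the control points at each age, and in the other panels the genotypes overlap at 1 or more ages.

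Gpx4, the phospholipid hydroperoxide peroxidase, had signals of 738.7, 614.7 and 566.2 in G93A against 895.3, 1195.4 and 1031.8 in controls at 60 days. At 90 days they were 696, 584 and 928.6 against 1084.2, 1072.1 and 1390.9. At 120 days they were 801.1, 674 and 516.3 against 1125.7, 1605.6 and 1181.5. At each age every G93A animal lay below every control of that age, and across ages only the G93A value of 928.6 exceeded a control value, 895.3 of control replicate 1 at 60 days.

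The Gpx4 log2 difference was -0.70 ± 0.27 at 60 days (limma adjusted p = 0.263), a 1.63-fold lower level, and -0.70 ± 0.27 at 90 days (limma adjusted p = 0.997), a 1.62-fold lower level. At 120 days it was -0.98 ± 0.27, a 1.97-fold lower level (limma adjusted p = 0.154). In the mean over ages, 9 G93A animals against 9 controls, it was -0.79 ± 0.16 with a 95% interval of -1.12 to -0.47, a 1.73-fold lower level, and did not pass the adjustment (limma adjusted p = 0.0917). Its unadjusted p of 3.88e-05 ranked 7 among the 16565 probe sets in that comparison. The difference at 120 days was -0.28 from that at 60 days and the change with age did not pass (limma F test, adjusted p = 0.897).

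The share of tested probe sets lower in G93A without overlap was 10.6% in animals of 60 days, 5.93% in those of 90 days and 6.2% in those of 120 days. Without overlap at all 3 ages there were 7 of 16565 lower in G93A (0.0423%), Gpx4 among them, and 2 higher (0.0121%). Whether 7 is more than the shares at the single ages would give together was not tested. The Gpx4 mean difference kept its sign under all 30 alternatives, between -0.85 and -0.63, with limma adjusted p from 0.0522 to 0.999, so it was called under none of them. The value nearest 0 came with the Gapdh ratio in the model, the log2 signal of Gapdh at its 3' end minus that at its 5' end, which rises with shorter RNA. That ratio was 3.88 to 4.63 in G93A against 3 to 3.66 in controls at 60 days, 4.11 to 4.72 against 2.47 to 4.18 at 90 days and 4.6 to 5.57 against 4.22 to 4.73 at 120 days. The median log2 difference of the 7 tested motor neuron markers went from -0.20 at 60 days over -0.67 at 90 days to -0.85 at 120 days. Their summed signals overlapped between genotypes at each age. With the mean log2 level of these markers, not their sum, in the model the Gpx4 mean difference was -0.82.

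**Figure D2:**
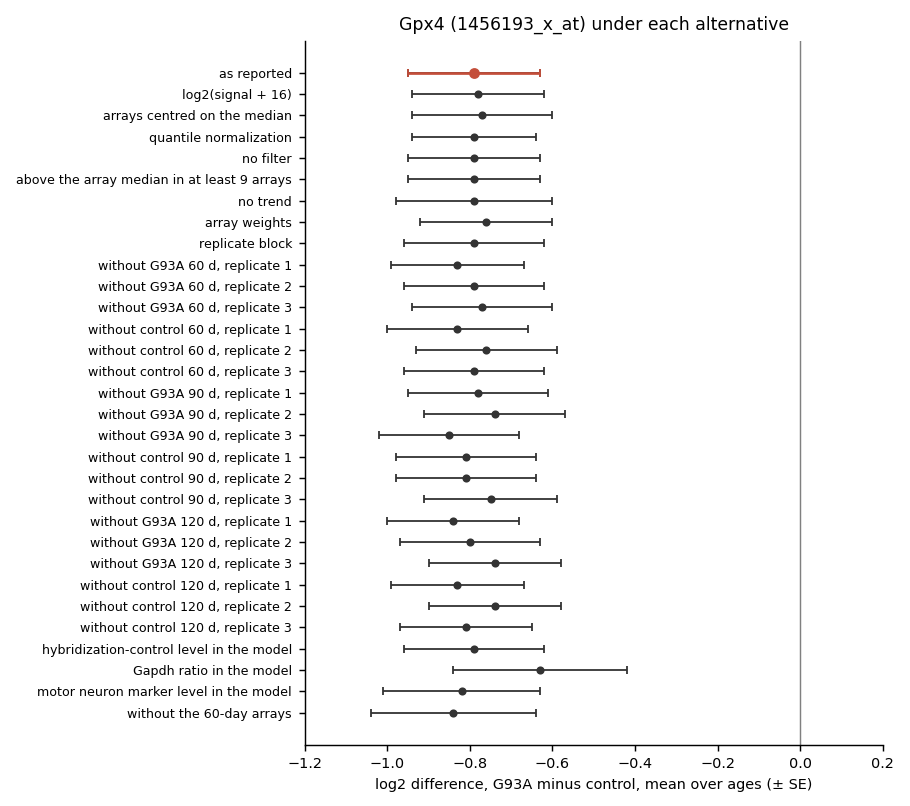
Log2 difference of Gpx4, G93A minus control in the mean over ages (points, with standard errors as bars), as reported in red at the top and under each of the 30 alternatives. All points lie between -0.85 and -0.63, and the one nearest 0 has the Gapdh ratio in the model.

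The Gpx4 probe set is of the _x_at type, marked by the manufacturer as able to bind other transcripts. The other Gpx4 probe set was below the array median on 17 of 18 arrays and was not tested; its signals were 9.9, 10.8 and 6.2 in G93A against 15.2, 15.6 and 16.9 in controls at 60 days, 5.4, 5.6 and 2.7 against 16.5, 13.8 and 39 at 90 days, and 8.9, 6.7 and 12.4 against 55.4, 16.4 and 3.5 at 120 days. These dim values were below the controls without overlap at 60 and 90 days and overlapped at 120 days.

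The sequence before a Gpx4 start is printed because Gpx4 gave the most regular genotype difference of the members. RefSeq lists 4 starts for it in GRCm38.p6, and the 250 bases before the second are chr10:80053315-80053564 on the plus strand, with GC boxes (GGGCGG) and CCAAT boxes (CCAAT) of either strand in capitals.
Gpx4: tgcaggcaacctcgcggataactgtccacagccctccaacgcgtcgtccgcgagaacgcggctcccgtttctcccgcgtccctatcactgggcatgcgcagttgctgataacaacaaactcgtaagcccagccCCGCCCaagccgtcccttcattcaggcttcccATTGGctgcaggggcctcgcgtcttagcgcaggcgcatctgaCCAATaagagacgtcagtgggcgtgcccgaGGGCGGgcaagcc
It holds 2 GC boxes and 2 CCAAT boxes. The windows of the other starts differ: the first holds 0 GC boxes and 1 CCAAT box, the third 2 and 3, and the fourth 1 and 0. Of all 32851 windows of this length in the table, 32.7% hold a GC box and 33.8% a CCAAT box on either strand. The core of the antioxidant response element (TGACNNNGC, either strand), the motif bound by NRF2, is in 10.2% of all windows. It was found in 1 of the 12 windows of the 9 listed genes in the table, that of Prdx1, and in 0 of the windows of the 7 measured genes. A match is only a description of letters.

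The second question was how the genes move with age from 60 to 120 days. In controls 2 of the 12 member probe sets changed, both upward, those of Gpx1 and 1 of the 2 of Prdx2, against a background of 6.71% of all probe sets called and 3.87% called higher. In G93A 0 of the 12 changed by limma, against 2% called over all probe sets, and 2 had an unadjusted p below 0.05, against 16.3%. In controls 6 of the 12 had such a p, against 24.5%. They include the third Sod2 probe set, whose controls of 120 days all lay below the array median. The share of all probe sets without overlap between ages was not counted, so a lack of overlap between ages is only a description below. Controls of 60 days serve both this comparison and the genotype comparison at 60 days, and the differences below share those animals.

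Gpx1, the abundant cytosolic and mitochondrial glutathione peroxidase, had control signals of 422.2, 501 and 215.2 at 60 days, then 733.7, 862.9 and 630.9 at 90 days, and 749.7, 1413.8 and 1467 by 120 days. All 3 controls of 120 days lay above all 3 of 60 days. Gpx1 rose by 1.70 ± 0.37 in controls, a 3.24-fold higher level (limma adjusted p = 0.00757), with 1.04 of the log2 difference between 60 and 90 days and 0.65 between 90 and 120 days. In G93A its signals were 639.5, 760.4 and 303.1 at 60 days, then 1229.8, 724.7 and 1054.1 at 90 days, and 957.1, 1490.7 and 1091.9 by 120 days. The G93A difference with age was 1.13 ± 0.37, also without overlap, and did not pass (limma adjusted p = 0.107). Between genotypes Gpx1 differed by 0.57 ± 0.37 at 60 days, 0.41 ± 0.37 at 90 days and 0.00 ± 0.37 at 120 days, with overlap at each age. The value at 60 days was 0.20 without control replicate 3, 0.30 without G93A replicate 2 and 0.97 without G93A replicate 3 of that age.

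Prdx2, the cytosolic peroxiredoxin abundant in neurons and red cells, is read by 2 probe sets. The one that changed, 1430979_a_at, had control signals of 335, 151.7 and 351.9 at 60 days, then 942.7, 887.8 and 834.3 at 90 days, and 1086.4, 1261.6 and 858.1 by 120 days. The controls of 60 days stood below all older controls. It rose by 2.01 ± 0.34 from 60 to 120 days in controls, 4.04-fold (limma adjusted p = 0.00118), with 1.76 of the difference before 90 days. In G93A it was 559.2, 557.1 and 318.5 at 60 days, then 959.5, 598.7 and 780.4 at 90 days, and 309.3, 614.8 and 531.3 by 120 days, and the difference from 60 to 120 days was 0.01 ± 0.34 (limma adjusted p = 0.993).

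Against controls this Prdx2 probe set differed by 0.82 ± 0.34 at 60 days, -0.21 ± 0.34 at 90 days and -1.18 ± 0.34 at 120 days, the last without overlap (limma adjusted p = 0.299, 0.997 and 0.165). The first was 0.43 without control replicate 2 of 60 days. At 120 days 6.2% of all probe sets were lower in G93A without overlap. The difference at 120 days was -2 from that at 60 days (limma F test, adjusted p = 0.102), and its adjusted p ran from 0.0433, with arrays centred on their median, to 0.399 over 29 alternatives. The second probe set, 1418506_a_at, had control signals of 591.9, 486.1 and 632.9 at 60 days, then 942.9, 1088.6 and 601.1 at 90 days, and 914.9, 826 and 965.8 by 120 days. In G93A they were 746.9, 533.2 and 358.7 at 60 days, then 1426.2, 1093.5 and 1340.1 at 90 days, and 571, 814.9 and 994 by 120 days. Its genotype differences were -0.12 ± 0.30, 0.59 ± 0.30 and -0.22 ± 0.30, with no overlap at 90 days, where 5.59% of all probe sets were higher in G93A without overlap. The 2 Prdx2 probe sets therefore differed in the sign of the genotype difference at 60 and 90 days, and both had a positive difference with age in controls, 0.67 ± 0.30 for the second (limma adjusted p = 0.177).

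Both age calls in controls were lost with the Gapdh ratio in the model, at 1.57 ± 0.47 for Gpx1 and 1.68 ± 0.42 for Prdx2 (limma adjusted p = 0.12 and 0.0587). The ratio was 3 to 3.66 in controls of 60 days and 4.22 to 4.73 in those of 120 days. The Gpx1 call was also lost without the trend in the variance (1.70 ± 0.45, limma adjusted p = 0.0516) and without control replicate 3 of 60 days (1.33 ± 0.38, limma adjusted p = 0.056), whose signal of 215.2 was the lowest, while Prdx2 was called without any 1 of the 18 arrays. Summed oligodendrocyte markers (6 of 7 tested) were 4786 to 7151 in controls at 60 days and 14161 to 21326 at 120 days, and microglial sums were 1623 to 3736 and 3429 to 5816. Such sums follow their brightest marker most, Mbp (median signal 6490) and Csf1r (1930). Of the 7 tested microglial markers 2 were called higher and 2 lower with age in controls by limma. Of the 6 oligodendrocyte markers 2 were called higher and 0 lower, against 6.71% of all probe sets called. The part of these markers in the age differences was not tested.

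The sequences before the starts of Gpx1 and Prdx2 are shown because these genes changed with age. They cover 250 bases of GRCm38.p6 per RefSeq, chr9:108338830-108339079 for Gpx1 and chr8:84969372-84969621 for Prdx2, both on the plus strand, with no capitals because none of the 3 motifs matched.
Gpx1: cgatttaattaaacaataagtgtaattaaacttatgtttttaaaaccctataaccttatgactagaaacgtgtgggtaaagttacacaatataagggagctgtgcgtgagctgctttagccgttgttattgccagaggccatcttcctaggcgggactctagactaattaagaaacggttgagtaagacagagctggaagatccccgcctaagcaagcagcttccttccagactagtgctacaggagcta
Prdx2: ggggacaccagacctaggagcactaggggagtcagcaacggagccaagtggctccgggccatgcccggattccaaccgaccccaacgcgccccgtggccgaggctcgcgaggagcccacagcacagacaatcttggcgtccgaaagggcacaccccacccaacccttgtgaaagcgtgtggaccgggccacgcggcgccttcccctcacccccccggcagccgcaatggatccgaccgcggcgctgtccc

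Sod2, the mitochondrial superoxide dismutase, is read by 3 probe sets. The brightest, 1448610_a_at, was 857.6, 1322.2 and 640.6 in G93A against 421.8, 606.7 and 359.2 in controls at 60 days, 1121.7, 1000.3 and 968.1 against 1104.4, 1220.8 and 1045.6 at 90 days, and 666.7, 402.6 and 566.2 against 617, 1059 and 744.8 at 120 days. G93A animals were above the controls at 60 days without overlap, as were 7.85% of all probe sets, and the genotypes overlapped later. The differences were 0.99 ± 0.31, -0.13 ± 0.31 and -0.56 ± 0.31 (limma adjusted p = 0.134, 0.997 and 0.477). The change of the difference from 60 to 120 days was -1.55 (limma F test, adjusted p = 0.148, and 0.0505 to 0.363 over 29 alternatives).

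The second Sod2 probe set, 1417193_at, was also higher in G93A at 60 days without overlap, by 1.41 ± 0.49 (limma adjusted p = 0.194), with signals from 102.4 to 288.5 against 27.6 to 100. That value was 0.89 without control replicate 2 of 60 days and 0.54 when the mean level of the hybridization controls entered the model. These are transcripts spiked into every sample, and their level was 7.75 to 10.68 on the log2 scale in G93A and 10.7 to 11.45 in controls at 60 days. The brightest Sod2 probe set differed by 1.03 ± 0.36 in that model. The second differed by 0.45 ± 0.49 at 90 days and -0.36 ± 0.49 at 120 days. The third, 1417194_at, was above the array median on only 4 arrays and ran opposite to both others at 60 and 120 days. Its lower group lay below the array median on all 3 arrays at both ages, so only signals are given. At 60 days they were 25.1 to 35.6 in G93A against 47.3 to 127.3 in controls, lower without overlap, as were 10.6% of all probe sets. They were 18.7 to 26.9 against 4.4 to 61 at 90 days, and 38.7 to 94.3 against 7.1 to 40.9 at 120 days. In controls from 60 to 120 days the brightest and the second differed by 0.80 ± 0.31 and 0.79 ± 0.49. Neither passed, and nor did the third, which was lower at 120 days.

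**Figure D3:**
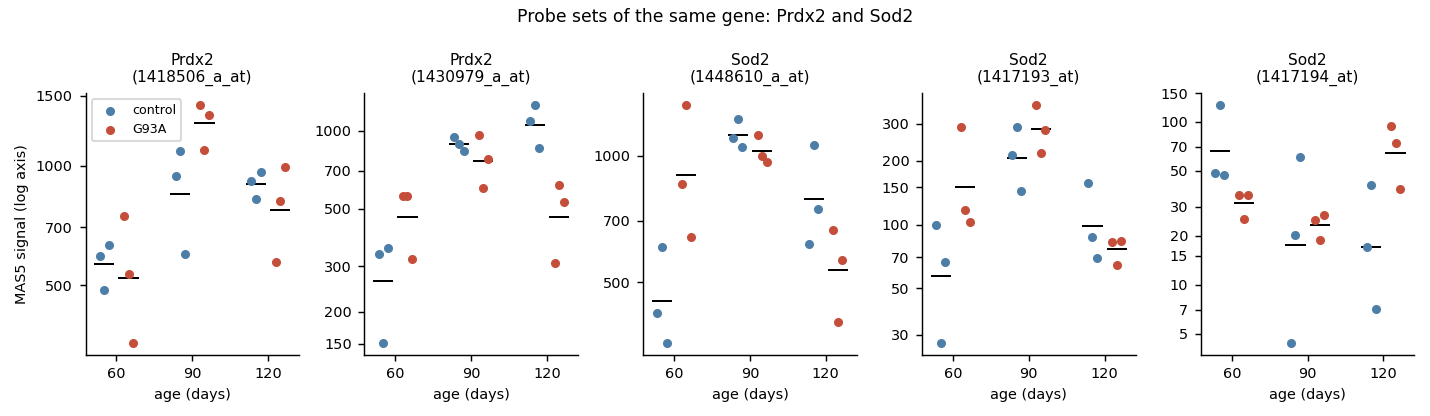
MAS5 signal (log axis) against age for the 2 probe sets of Prdx2 and the 3 of Sod2, with 1 point per animal and the geometric mean as a line. The 2 brighter Sod2 probe sets and Prdx2 1430979_a_at have their lowest control means at 60 days, while the dim Sod2 probe set 1417194_at has control signals of 47.3 to 127.3 at that age and 7.1 to 40.9 at 120 days.

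Txn1, the thioredoxin that passes electrons to peroxiredoxins, had signals of 939.2, 2225.7 and 489.3 in G93A against 460.6, 1035.6 and 276.9 in controls at 60 days. At 90 days they were 2342.9, 1282.4 and 1511.8 against 1678.4, 985.5 and 1382.9, and at 120 days 426, 733 and 869.2 against 927, 1823.7 and 1116.3. Only at 120 days did the genotypes not overlap, with G93A lower, as were 6.2% of all probe sets at that age. The differences were 0.98 ± 0.47, 0.33 ± 0.47 and -0.93 ± 0.47 (limma adjusted p = 0.38, 0.997 and 0.426). The first was 0.41 without G93A replicate 2 of 60 days. The second Txn1 probe set, with signals of 18.9 to 221.9, differed by -0.20, -0.91 and -0.93 (each ± 0.71), with overlap at each age.

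Cat, the peroxisomal catalase, gave no call in any comparison. Its brighter probe set was 908, 1539.2 and 616.5 in G93A against 1538.1, 758.6 and 636.9 in controls at 60 days, 1088, 585.4 and 892.5 against 612.8, 1153.2 and 789.6 at 90 days, and 630.7, 1162.4 and 1126.4 against 674.5, 880.2 and 726.7 at 120 days. Every group overlapped every other. The genotype differences were 0.07, 0.01 and 0.31 (each ± 0.37), the 95% intervals spanned -0.76 to 1.08, and the first 2 changed sign with 1 array left out. The dimmer Cat probe set differed by -0.49, 0.01 and 0.26 (each ± 0.57).

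Prdx3, the peroxiredoxin of the mitochondrial matrix, was read by 1 probe set, above the array median on 13 of 18 arrays. Its signals were 57.8, 75.8 and 51.9 in G93A against 31.7, 21.6 and 178.2 in controls at 60 days, 118.6, 64 and 74.5 against 54.1, 96.7 and 81.8 at 90 days, and 125.8, 52.8 and 140.2 against 136.6, 70.9 and 103.2 at 120 days. Control replicate 3 of 60 days was the highest of all 18 and the other 2 controls of that age the lowest. The differences were 0.30, 0.13 and -0.03 (each ± 0.63), and the first was 1.22 without that array. The 95% intervals, not adjusted for the number of probe sets, spanned -1.34 to 1.60 over the ages. The Prdx3 interval at each age included 0, so with 3 animals a group no direction of a difference was resolved.

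**Figure D4:**
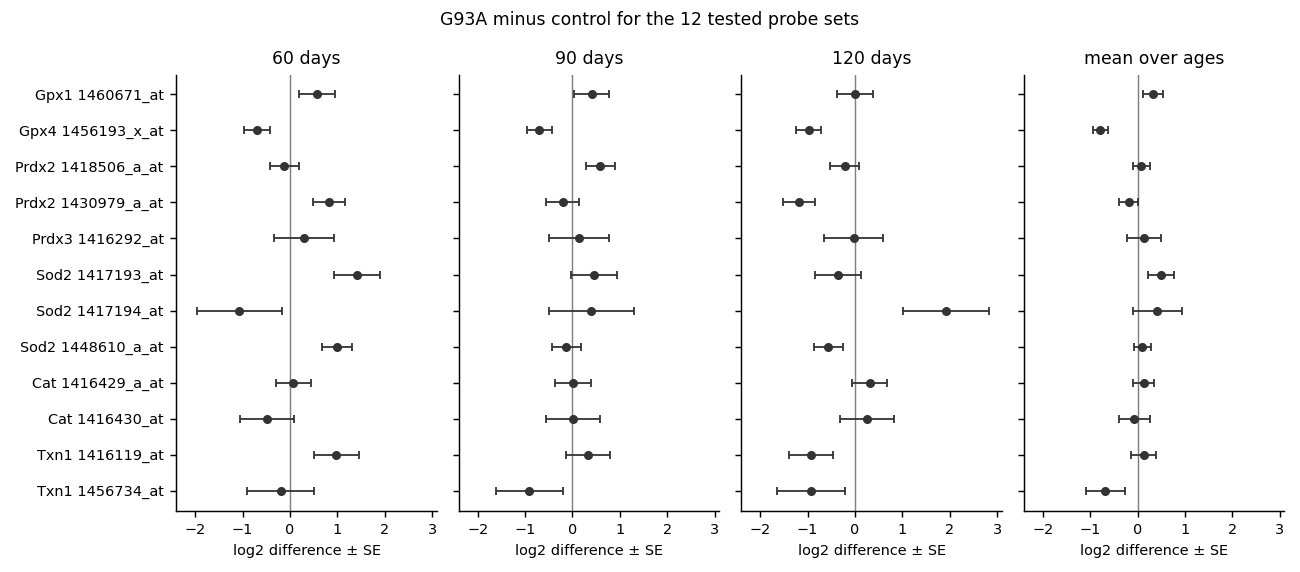
Log2 difference, G93A minus control, with its standard error for the 12 tested probe sets at 60, 90 and 120 days and in the mean over ages. Gpx4 lies at -0.70, -0.70 and -0.98, while probe sets of Prdx2, Sod2 and Txn1 are above 0 at 60 days and below 0 at 120 days for at least 1 probe set of each gene.

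With each gene read by its brightest probe set, 5 of the 7 genes were above 0 at 60 days, 5 at 90 days and 2 at 120 days, against 46.8%, 49.9% and 53.4% of 10051 genes. The median difference of the 7 was 0.30, 0.13 and -0.22, against -0.06, 0.00 and 0.07 over all genes. The median at 60 days was -0.06 without control replicate 2 of that age, and that at 90 days was -0.13 without G93A replicate 1 and -0.11 without control replicate 1 of that age, so neither sign held. In controls from 60 to 120 days 6 of 7 were above 0 with a median of 0.80, against 41.7% and -0.22 over all genes, and in G93A 4 of 7 with a median of 0.04. Once each array was centred on its median, the median of all genes in controls was 0.28, and Txn1 (1.78), Sod2 (1.3) and the second Prdx2 probe set (1.17) were then called too, 5 of the 12 in all, while the share called over all probe sets went from 6.71% to 9.48%.

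Other genes of redox defence were read from a list of 42, of which 37 were tested: thioredoxin and glutaredoxin partners, glutathione synthesis and transferases, the NRF2 system, iron storage and selenoproteins. By limma 0 of the 37 changed between genotypes at any age or in the mean, with 3 at an unadjusted p below 0.05 at 60 days, 6 at 90 days, 1 at 120 days and 6 in the mean over ages. The shares of all probe sets given above, 12.6%, 4.56%, 12.2% and 7.74%, put the counts at 60 and 120 days below the background. They put those at 90 days and in the mean over ages above it, and the list as a whole was not tested. The count at 90 days includes Txnrd2, Nqo1, Gpx7 and Selenow, whose lower group of that age lay below the array median on all 3 arrays. Txnrd2 is also in the count for the mean over ages, so neither count is read as an excess. Their median differences were -0.22, 0.10 and -0.04, and 17, 19 and 16 were above 0. At 60 days the smallest p belonged to Fth1, the ferritin heavy chain that stores iron (1.34 ± 0.38), the glutathione peroxidase Gpx7, Sesn1 (0.77 ± 0.35) and the mitochondrial thioredoxin reductase Txnrd2. At 90 days they belonged to Txnrd2, the quinone reductase Nqo1, Gpx7 and Selenop (0.95 ± 0.44). For Txnrd2, Gpx7 and Nqo1 the lower group lay below the array median on all 3 arrays, so only signals are given. Txnrd2 was 7.6 to 14.3 in G93A against 23.5 to 84.6 in controls at 60 days, and 6.8 to 8 against 15.3 to 82.3 at 90 days. Gpx7 was 33.7 to 70.4 against 6.3 to 29.2 at 60 days, and 7.3 to 33.3 against 54.7 to 76 at 90 days. Nqo1 was 52.2 to 81.7 against 7.7 to 38.7 at 90 days. At 120 days the smallest p belonged to the secretory pathway peroxiredoxin Prdx4 (-1.37 ± 0.48), Glrx2 (-0.81 ± 0.40), Gstm5 (-0.65 ± 0.37) and Gstk1 (-1.41 ± 0.81). Prdx4 and Gstk1 each lay above the array median on only 1 of 3 G93A arrays of that age. In the mean over ages the smallest p belonged to Fth1 (0.61 ± 0.22), Selenop (0.61 ± 0.25), Gstm1 (0.44 ± 0.20) and Nfe2l2, which encodes NRF2 (0.58 ± 0.26).

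Fth1 was the only 1 of the 37 to change with age, rising from 60 to 120 days in both genotypes. Over all probe sets 6.71% were called with age in controls and 2% in G93A. Fth1 was not followed through the alternatives. Its control signals were 1926.7, 1337 and 3334.4 at 60 days, then 8435.3, 5834 and 3569.4 at 90 days, and 12576.4, 11277.3 and 18754.9 by 120 days, and those of G93A were 4561.6, 5382.3 and 5679.2, 7449.6, 7643.9 and 7339.5, and 11378.1, 17655.8 and 15743.4. The groups of 60 and 120 days did not overlap in either genotype, and the share of all probe sets without such overlap was not counted. Fth1 rose by 2.76 ± 0.38 in controls (limma adjusted p = 0.000148) and by 1.5 ± 0.38 in G93A (limma adjusted p = 0.0428). Microglial and oligodendrocyte marker sums, led by Csf1r and Mbp, were also higher at 120 than at 60 days in both genotypes except where microglial ranges of controls overlapped, and their part in the Fth1 values was not tested. Of the 7 tested microglial markers 2 were below 0 with age in controls and 1 in G93A.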

How the data were processed

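RNA of 18 animals was measured on 1-colour oligonucleotide arrays. The authors deposited 1 linear intensity for each probe set and array. The submitters' processing notes name MAS5 as the tool, without a version or settings. Signals under 1 were set to 1 (0.236% of values) and put on the log2 scale, with no further normalization. Tested were 16565 probe sets above their array's median on at least 3 of 18 arrays, without the 64 control probe sets. Limma 3.58.1 (R 4.3.3) fitted the 6 group means over all arrays with a trend in the mean level and 12 residual degrees of freedom, two-sided, adjusted by Benjamini-Hochberg within each comparison. The steps were tested on simulated data. The number of arrays limits the precision.

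All 7 measured genes matched RefSeq by Entrez identifier. Gene counts and medians use 1 tested probe set per gene, the brightest on average, an _x_at one being taken only where the gene had no other. Signals per array are given for these probe sets and for those that changed. Of the other redox genes, those that changed and up to 4 of the smallest p per genotype comparison are named, and Selenow for its low signals. Members, lists and rules were chosen with earlier results of these data known. The title numbers did not pair the arrays: deviations from the group means correlated at -0.116 to 0.0576 between same-numbered arrays of an age. The labels name separate animals.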

Additional observations from a re-analysis of the deposited data

How the results depend on the processing

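Alternatives were a pseudocount of 16, centring, quantile normalization, no or a stricter filter (at least 9 arrays), 1 age only, no trend, array weights, the replicate number as a block and 18 fits without 1 array, plus, chosen after seeing the data, 3 array measures as model terms and the fit without 60-day arrays. The counts of 0 member probe sets changed between genotypes, and in G93A with age, held in every fit. The count of 2 in controls with age was 5 with centring, 1 without the trend, 0 with the Gapdh ratio (9.48%, 3.31% and 0.881% of all probe sets called, against 6.71%), and 1 to 3 with 1 array left out. The count of 0 whose genotype difference changed with age was 1 with centring (1.43% of all, against 0.417%). The median of the members at 60 days was -0.16 with the Gapdh ratio and ran from -0.06 to 0.45 with 1 array left out, and that at 90 days ran from -0.13 to 0.32. The members' median at 120 days was -0.54 with centring, which also moved the median of all genes at that age from 0.07 to -0.25. With the replicate block 0, 0, 0 and 2 member probe sets were called at 60, 90 and 120 days and with age in controls, and Gpx4 had -0.79 in the mean over ages. Over all probe sets the calls at 60 days went from 114 to 1 with the hybridization-control level, and in controls with age from 1112 to 146 with the Gapdh ratio. Of 84 differences of the member probe sets 48 kept their sign in every alternative, and no value that was called in either fit changed sign. The cause of these shifts was not tested.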

Other observations

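Beside Gpx4, 6 probe sets were lower in G93A than in controls without overlap at each of the 3 ages, and they were named after their values were seen. They belong to Lin7b, a scaffold of synaptic junctions (mean log2 difference -0.92, limma adjusted p = 0.129), the neuronal calponin-like protein Tagln3 (-1.34), the dynein-associated Nudc (-1.34), the proton pump subunit Atp6v0b (-1.79), the receptor tyrosine kinase Tyro3 (-1.73) and the secreted WNT pathway protein Dkk3 (-0.96). None passed the adjustment. The 2 that were higher at each age were the lysozyme gene Lyz1 (2.57, limma adjusted p = 0.0127) and the nuclear RNA-binding protein Hnrnpu (0.54, limma adjusted p = 0.549). The Lyz1 probe set is of the _x_at type, as for Gpx4, and may bind other transcripts.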
